A study of Mus musculus with 12 samples.

Results

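The RNA levels of 10 genes for enzymes that modify and cross-link collagen were measured in mouse mesangial cells (MMC), the contractile cells that hold the capillaries of the glomerulus together. The genes were chosen by symbol, as the prolyl 4-hydroxylase alpha subunits P4ha1, P4ha2 and P4ha3, the lysyl hydroxylases Plod1 and Plod2, and the lysyl oxidases Lox, Loxl1, Loxl2, Loxl3 and Loxl4. They are 10 of the 25230 genes in the count tables and 10 of the 11536 genes tested, which had RPKM (a read count scaled to the exon length of the gene and the depth of the library) above 1 in at least 1 library. All 10 were above that limit in each of the 12 libraries, with between 150 and 116125 counts.

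Primary MMC came from wild-type (WT) mice or from mice of the lncMGC-KO5 line (KO), in which Cas9 and a pair of guide RNAs injected into eggs had deleted a short stretch around the transcription start site of lncMGC, the long noncoding host transcript of the miR-379 cluster of microRNAs. Cells of both genotypes were grown with serum. The control cells were depleted of serum (SD) and untreated, and the others were given TGF-β, the growth factor that drives matrix production in diabetic kidney disease, at 10 ng/ml for 24 hours. Whether the cells given TGF-β were depleted of serum too is not stated. If they were not, an effect of serum cannot be told apart from that of TGF-β. There were 3 mRNA libraries in each of the 4 groups, named WT-SD and WT-TGF for WT cells and KO-SD and KO-TGF for KO cells. KO5 is a single mouse line, the ages of the mice are not given in the labels, and nothing in the labels says that the libraries of a group came from separate cultures, so the p-values measure the spread between these libraries, which may be technical. The authors call the samples behind their RNA-seq heatmap independent, 3 to a mean, without saying whether these were separate cultures or animals. With 3 libraries against 3, an exact permutation test cannot give a p below 0.1, and the tests below come from a fit across all genes. The question put to these genes was whether TGF-β changed them and whether the change differed between the genotypes.

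Collagen chains are modified in the endoplasmic reticulum before they fold. Prolyl 4-hydroxylases, made of a catalytic alpha subunit and the protein disulfide isomerase P4hb, hydroxylate prolines and so make the triple helix stable at body temperature, and lysyl hydroxylases hydroxylate lysines that later carry sugars or cross-links. Both need iron, oxygen, 2-oxoglutarate and ascorbate. After secretion, the copper-dependent lysyl oxidases oxidize lysines and hydroxylysines to aldehydes that react into the covalent cross-links that stiffen collagen and elastin, and these enzymes are known for their part in the scarring of the glomerulus and the interstitium.

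The promoters of the prolyl 4-hydroxylase genes are shown here because their 3 alpha subunits moved in different ways. Each window runs from 250 bases before to 50 bases after a RefSeq start on GRCm38.p6 (mm10), all on the plus strand: chr10:59323046-59323345 for P4ha1, chr11:54100674-54100973 for P4ha2 and chr7:100285270-100285569 for P4ha3. Capitals mark ACGTG, the core of the hypoxia response element, and TATAAA, the TATA box, on either strand, so that ACGTG on the minus strand reads CACGT.
P4ha1: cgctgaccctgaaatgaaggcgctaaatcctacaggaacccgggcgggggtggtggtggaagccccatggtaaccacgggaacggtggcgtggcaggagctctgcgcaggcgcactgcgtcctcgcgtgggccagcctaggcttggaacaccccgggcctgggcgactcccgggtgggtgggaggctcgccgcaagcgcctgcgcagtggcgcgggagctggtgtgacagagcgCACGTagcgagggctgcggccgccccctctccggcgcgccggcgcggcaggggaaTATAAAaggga
P4ha2: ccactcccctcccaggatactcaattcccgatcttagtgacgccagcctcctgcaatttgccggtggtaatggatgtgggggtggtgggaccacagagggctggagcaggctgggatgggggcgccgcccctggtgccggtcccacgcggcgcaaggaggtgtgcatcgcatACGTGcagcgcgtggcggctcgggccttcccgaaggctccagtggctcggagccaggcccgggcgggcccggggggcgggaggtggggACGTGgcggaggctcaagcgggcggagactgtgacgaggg
P4ha3: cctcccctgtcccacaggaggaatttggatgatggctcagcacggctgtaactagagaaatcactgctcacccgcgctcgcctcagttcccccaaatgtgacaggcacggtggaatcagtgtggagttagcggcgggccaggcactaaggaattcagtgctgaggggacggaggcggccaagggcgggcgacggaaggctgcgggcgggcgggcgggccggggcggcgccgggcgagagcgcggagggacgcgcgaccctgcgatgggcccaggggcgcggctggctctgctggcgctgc

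P4ha1 had 1 match to ACGTG, on the minus strand at base -16 from the start, and TATAAA at base 39, downstream of the start used. The gene bounds of P4ha1 and P4ha3 begin at 59323197 and 100285489, upstream of the starts used for their windows. P4ha2 had 2 matches to ACGTG, at bases -78 and 10, and P4ha3 had neither motif. Windows were found for 5 of the 10 genes, the others being Plod1, with TATAAA on the minus strand at base -232, and Loxl4. CAGAC, the SMAD CAGA box, was in the windows of Plod1, on the minus strand at base -74, and Loxl4, at base -226. It was in none of the P4ha windows. Of all 32851 windows of this length, 19.6% held ACGTG, 49.6% CAGAC and 13.6% TATAAA, and the 5 windows were 64.3% to 75% G and C. These matches describe the letters of the windows and were not tested against the counts.

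The libraries held between 19898050 and 22827706 counts on genes. Replicates differed by more than the sampling noise, as the chi-square divided by its degrees of freedom was 1.35 to 5.05 over the 12 pairs, and the 2 highest values (5.05 and 4.20) were those of KO-SD replicate 1. lncMGC itself was not among the genes counted. Mirg, a transcript at the 3′ end of lncMGC and outside the deleted stretch, had 47 to 59 counts in WT-SD, 73 to 80 in WT-TGF, 72 to 89 in KO-SD and 68 to 87 in KO-TGF. It was thus not lower in the libraries labelled KO: in SD every one of them lay above the WT libraries, and with TGF-β the genotypes overlapped. The deletion was not checked in these counts, and KO stands for the libraries labelled KO throughout. The authors reported the deletion by Sanger sequencing, and lower lncMGC and Mirg in KO than in WT MMC by RT-qPCR. The counts of Mirg did not show that direction, and the cause was not tested. Of 10 mesangial markers, between 8 and 9 were above the floor of 3 counts in every library of a group. Acta2 (smooth muscle actin) and Pdgfrb were high, while Des (desmin) had 156 to 202 counts in WT-SD libraries and 11 to 12 in KO-SD, and Thy1 had at most 1.

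TGF-β raised 9 of the 10 genes in WT MMC and the same number in KO MMC, and lowered P4ha2 in both. The log2 fold changes ranged from -0.42 to 1.80 in WT (median 0.80, against -0.01 over all genes tested) and from -0.20 to 1.58 in KO (median 0.65, against -0.03). At FDR <5%, 36.0% of all genes tested rose and 36.4% fell in WT, and 34.9% rose and 39.1% fell in KO. With a fold change >2, 3 genes rose in WT (Loxl1, Loxl2 and P4ha3) and 3 in KO (Loxl1, Loxl2 and Loxl4), and none fell, where 4.14% of all genes rose and 5.77% fell in WT, and 4.38% rose and 9.15% fell in KO. In both genotypes, none of the 10 genes had SD and TGF-β libraries that overlapped in CPM (counts scaled to the TMM-normalized library size, without correction for gene length), which held for 75.1% of all genes tested in WT and 74.3% in KO. In bulk RNA, fewer cells of a type and less RNA per cell cannot be told apart.

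**Figure D1:**
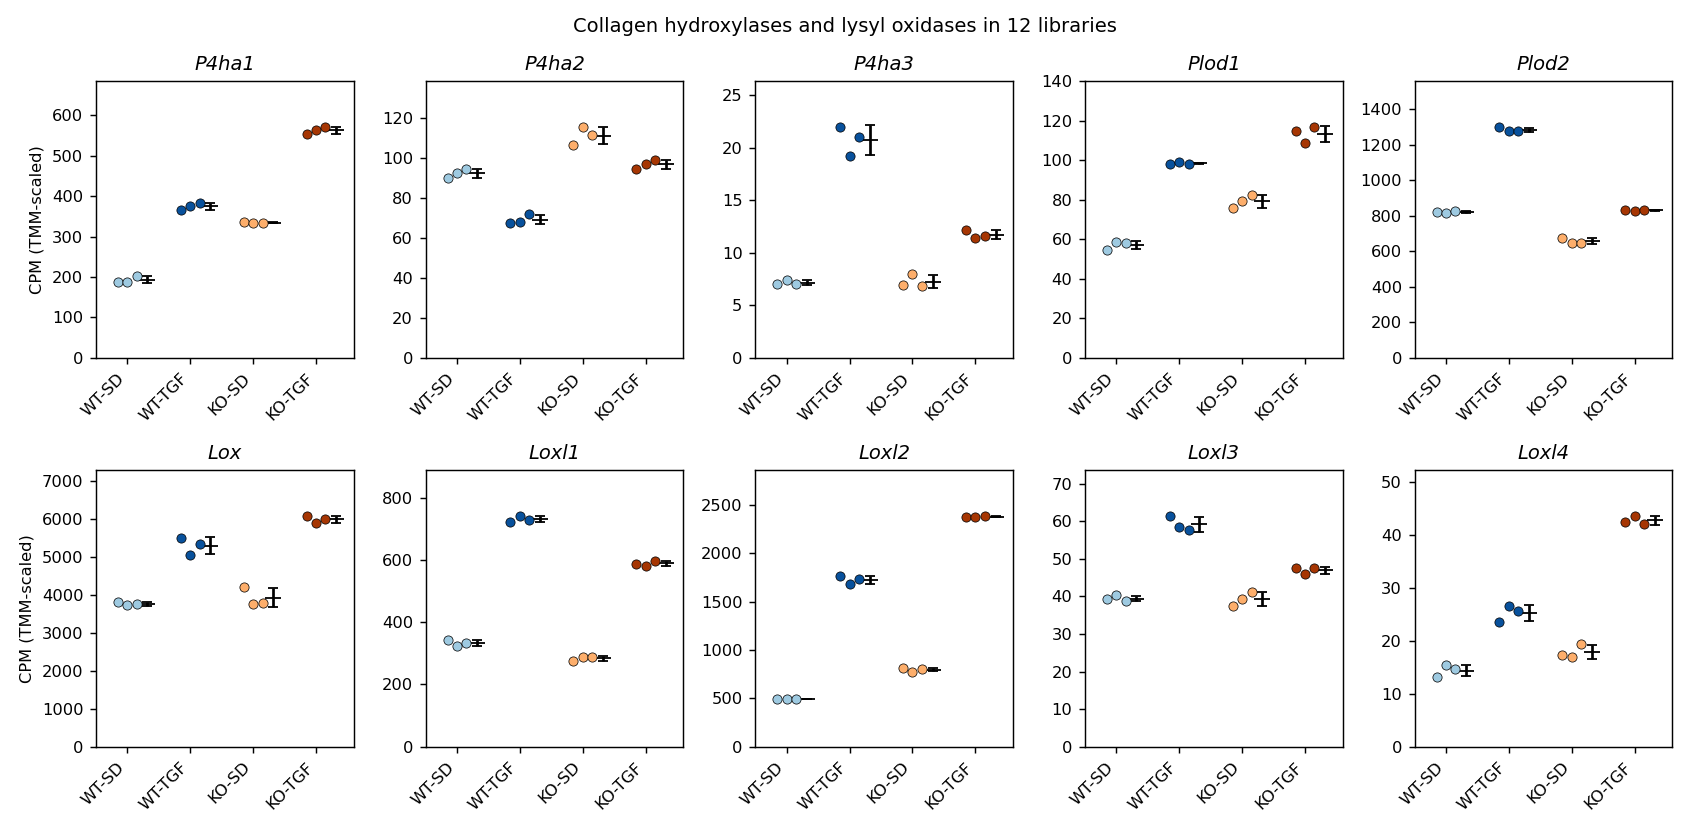
CPM (TMM-scaled, linear axis from 0 in each panel) of the 10 genes by group, with 1 point per library, the mean as a line and the SD over 3 libraries as an error bar. P4ha2 is the one gene whose TGF-β libraries lie below the SD libraries of the same genotype, from 67.6 to 71.7 CPM against 89.7 to 94.6 CPM in WT.

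The prolyl 4-hydroxylase alpha subunits went different ways with TGF-β. P4ha1, the main catalytic subunit in most cells, had 188, 188 and 203 CPM in the WT-SD libraries, 365, 376 and 382 in WT-TGF, 335, 334 and 335 in KO-SD, and 554, 564 and 570 in KO-TGF. The groups stood apart from each other, with KO-SD near the level that WT reached only with TGF-β. The log2 fold change with TGF-β was 0.96 (SE 0.0281, adjusted p = 2.07e-23 by the quasi-likelihood test of edgeR, adjusted after Benjamini and Hochberg) in WT and 0.75 (SE 0.0271, adjusted p = 3.41e-21) in KO. P4ha2, the second alpha subunit, had 89.7, 92.2 and 94.6 CPM in WT-SD, 67.6, 68.0 and 71.7 in WT-TGF, 107, 115 and 111 in KO-SD, and 94.2, 97.1 and 98.9 in KO-TGF. Its lowest libraries were those of WT-TGF and its highest those of KO-SD. It fell by 0.42 on the log2 scale in WT (SE 0.0377, adjusted p = 2.90e-11) and fell by 0.20 in KO (SE 0.0363, adjusted p = 1.36e-05). When libraries were scaled by size alone, the values were -0.58 in WT and -0.40 in KO. P4ha3, the least abundant alpha subunit, had 7.05, 7.41 and 7.05 CPM in WT-SD, 21.9, 19.2 and 21.0 in WT-TGF, 6.94, 7.96 and 6.88 in KO-SD, and 12.2, 11.4 and 11.6 in KO-TGF. The SD libraries of the genotypes overlapped, and each KO-TGF library lay between them and WT-TGF. P4ha3 rose by 1.53 on the log2 scale in WT (SE 0.0779, adjusted p = 3.02e-17) and by 0.69 in KO (SE 0.0892, adjusted p = 4.05e-08).

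The makeup of the alpha subunits shifted towards P4ha1. On the RPKM scale, which corrects for exon length, the 3 genes summed to 64.0 ± 2.38 in WT-SD and 109 ± 2.32 in WT-TGF, and to 101 ± 0.742 in KO-SD and 156 ± 2.31 in KO-TGF (SD, n = 3). P4ha2 made up 23.1% ± 0.390 of the sum in WT-SD and 10.2% ± 0.147 in WT-TGF, and 17.5% ± 0.568 in KO-SD and 9.94% ± 0.0967 in KO-TGF. The share of P4ha2 did not overlap between SD and TGF-β libraries in either genotype. P4ha1 made up 73.3% ± 0.584, 83.7% ± 0.527, 80.2% ± 0.711 and 87.7% ± 0.0453 in WT without and with TGF-β and in KO without and with it. The share of P4ha3 was 6.08% ± 0.462 in WT-TGF and between 2.28% and 3.58% in the other groups.

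Both lysyl hydroxylase genes rose. Plod2, which hydroxylates the lysines of collagen telopeptides that form the more stable cross-links, had 823, 817 and 824 CPM in WT-SD, 1298, 1277 and 1277 in WT-TGF, 677, 646 and 649 in KO-SD, and 833, 828 and 833 in KO-TGF. With TGF-β, the KO libraries thus came close to the WT libraries without it, and the WT-TGF libraries stood far above the rest. The log2 fold change was 0.65 in WT (SE 0.0218, adjusted p = 6.89e-22) and 0.34 in KO (SE 0.0220, adjusted p = 1.03e-14). With scaling by library size alone, the values were 0.49 in WT and 0.13 in KO. Plod1, which acts on lysines of the helix, had 54.6, 58.7 and 57.9 CPM in WT-SD, 98.0, 98.9 and 98.2 in WT-TGF, 75.8, 79.3 and 82.6 in KO-SD, and 115, 109 and 117 in KO-TGF. Its groups came in the same order as those of P4ha1, from WT-SD to KO-TGF. It rose by 0.78 on the log2 scale in WT (SE 0.0390, adjusted p = 1.65e-17) and by 0.52 in KO (SE 0.0377, adjusted p = 1.57e-13). With scaling by library size alone, the values were 0.63 in WT and 0.31 in KO.

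Per exon length, Plod2 was the main lysyl hydroxylase in every group. With Plod3, the remaining gene of the family, which also adds sugars to hydroxylysine, the sum was 184 ± 2.41 RPKM in WT-SD, 288 ± 1.96 in WT-TGF, 164 ± 2.01 in KO-SD and 217 ± 1.36 in KO-TGF (SD, n = 3). Plod2 made up 82.7% ± 0.843 and 82.7% ± 0.260 of it in WT-SD and WT-TGF, which overlapped, and 74.5% ± 0.972 and 71.0% ± 0.224 in KO-SD and KO-TGF, which did not. Plod3 made up 12.7% ± 0.810, 12.2% ± 0.211, 18.3% ± 0.666 and 21.3% ± 0.00921 in the same order of groups, and Plod1 between 4.58% and 7.72%. The log2 fold change of Plod3 was 0.59 with TGF-β in WT, 0.62 in KO, 0.36 for KO against WT in SD and 0.39 under TGF-β, all at FDR <5%, while Plod2 was lower in KO in both conditions.

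**Figure D2:**
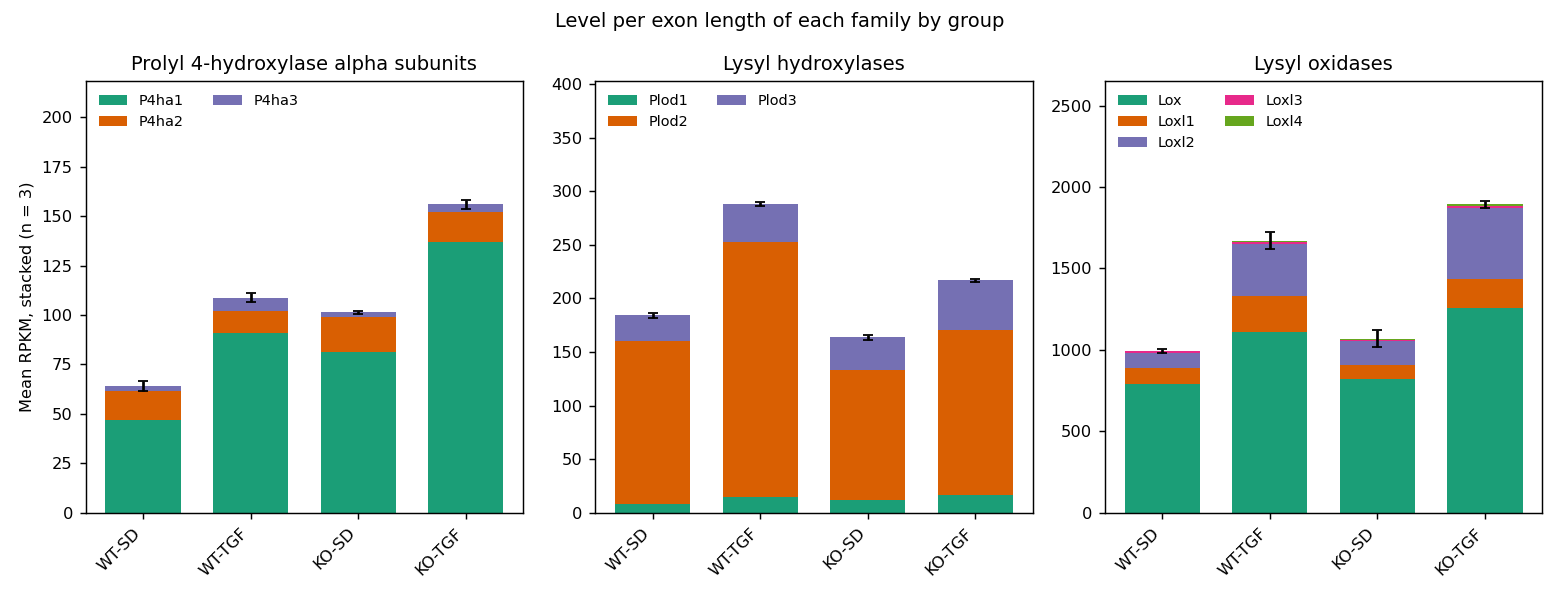
Mean RPKM of the genes of each family stacked by group, with the SD of the sum over 3 libraries as an error bar (linear axis from 0). Lox fills most of the lysyl oxidase bars, Plod2 most of the lysyl hydroxylase bars and P4ha1 most of the prolyl 4-hydroxylase bars, and the P4ha2 layer becomes thinner from 14.8 to 11.1 RPKM in WT with TGF-β.

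All 5 lysyl oxidase genes rose with TGF-β in both genotypes. Loxl2, which cross-links type IV collagen of basement membranes among other substrates, had the largest change of the 10 genes. It had 496, 492 and 496 CPM in WT-SD, 1765, 1683 and 1737 in WT-TGF, 810, 778 and 805 in KO-SD, and 2381, 2375 and 2388 in KO-TGF. Its groups were far apart, in the order WT-SD, KO-SD, WT-TGF and KO-TGF. The log2 fold change was 1.80 in WT (SE 0.0226, adjusted p = 1.07e-32) and 1.58 in KO (SE 0.0222, adjusted p = 1.25e-31). Loxl1, best known for its part in elastic fibers, had 342, 324 and 333 CPM in WT-SD, 723, 741 and 728 in WT-TGF, 275, 288 and 289 in KO-SD, and 587, 581 and 597 in KO-TGF. In each condition, its KO libraries were below the WT libraries. It rose by 1.13 on the log2 scale in WT (SE 0.0256, adjusted p = 2.17e-26) and by 1.05 in KO (SE 0.0260, adjusted p = 1.91e-25).

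Lox, the founding member of the family, had 3821, 3723 and 3767 CPM in WT-SD, 5490.0, 5046 and 5350 in WT-TGF, 4208, 3765 and 3796 in KO-SD, and 6085, 5890 and 5997 in KO-TGF. It was the most abundant of the 10 transcripts and changed least in proportion among the lysyl oxidases in WT, and KO-SD replicate 1 stood above the other SD libraries. Its log2 fold change was 0.49 in WT (SE 0.0295, adjusted p = 1.97e-15) and 0.61 in KO (SE 0.0295, adjusted p = 6.18e-18). With scaling by library size alone, the values were 0.33 in WT and 0.41 in KO. Loxl3 had 39.2, 40.2 and 38.8 CPM in WT-SD, 61.4, 58.6 and 57.6 in WT-TGF, 37.3, 39.4 and 41.1 in KO-SD, and 47.5, 45.8 and 47.5 in KO-TGF. Its SD libraries overlapped between the genotypes and its TGF-β libraries did not. It rose by 0.59 on the log2 scale in WT (SE 0.0417, adjusted p = 1.08e-13) and by 0.26 in KO (SE 0.0443, adjusted p = 6.17e-06). When libraries were scaled by their size alone, the values were 0.43 in WT and 0.05 in KO (adjusted p = 0.292 in KO). Loxl4, which like Loxl2 and Loxl3 carries scavenger receptor domains, had 13.2, 15.3 and 14.6 CPM in WT-SD, 23.5, 26.5 and 25.6 in WT-TGF, 17.3, 17.0 and 19.4 in KO-SD, and 42.5, 43.6 and 42.1 in KO-TGF. Here the KO-TGF libraries stood well above all others. It rose by 0.81 on the log2 scale in WT (SE 0.0661, adjusted p = 2.90e-12) and by 1.26 in KO (SE 0.0598, adjusted p = 4.18e-18).

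Summed per exon length, the lysyl oxidases had 994 ± 13.1 RPKM in WT-SD, 1669 ± 52.3 in WT-TGF, 1068 ± 51.2 in KO-SD and 1893 ± 22.4 in KO-TGF (SD, n = 3). Lox made up 79.4% ± 0.0203 of the sum in WT-SD and 66.4% ± 0.777 in WT-TGF, and 76.9% ± 1.16 in KO-SD and 66.2% ± 0.325 in KO-TGF. Its share with TGF-β overlapped between the genotypes. Loxl2 took up most of the difference, with 9.22% ± 0.0916 in WT-SD, 19.2% ± 0.141 in WT-TGF, 13.8% ± 0.481 in KO-SD and 23.3% ± 0.242 in KO-TGF. Loxl1 made up 10.2% ± 0.148 and 13.3% ± 0.594 in WT-SD and WT-TGF, and 8.08% ± 0.599 and 9.43% ± 0.114 in KO-SD and KO-TGF. Loxl3 and Loxl4 were each at most 0.891% in any library.

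**Figure D3:**
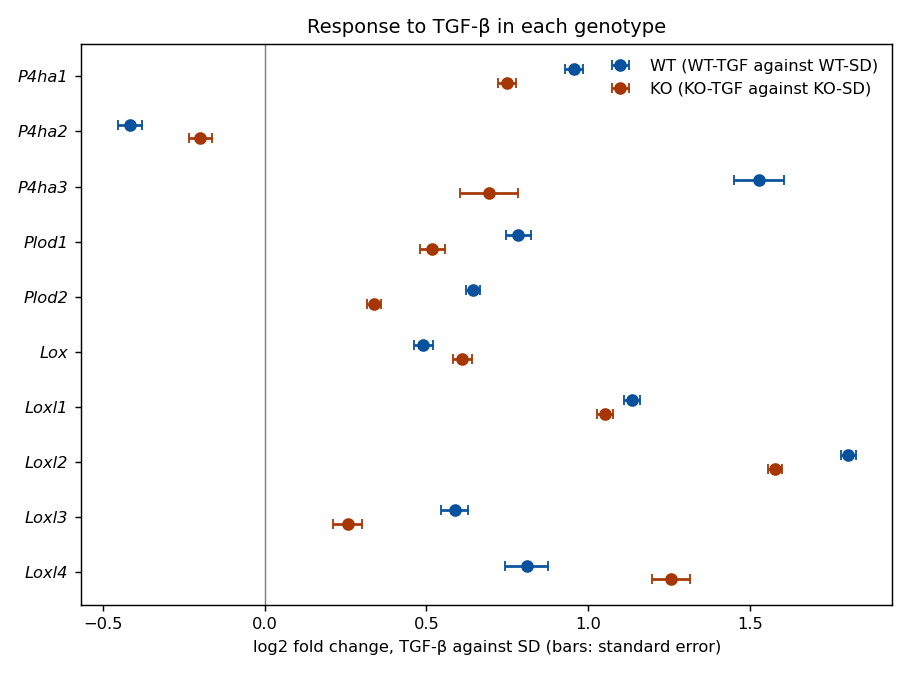
Log2 fold change of each gene with TGF-β in WT MMC and in KO MMC, with the SE as error bars (n = 3 libraries per group). P4ha2 is the one gene to the left of 0 in both genotypes, and Loxl2 is furthest to the right, at 1.80 in WT and 1.58 in KO.

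In level, the genes spanned from 2.29 RPKM (P4ha3) to 789 RPKM (Lox) in WT-SD. Lox was above 99.9% of the genes tested in each group, and P4ha3 in WT-SD was above 19.7% of them. The order in WT-SD was Lox, Plod2, Loxl1, Loxl2, P4ha1, P4ha2, Loxl3, Plod1, Loxl4 and P4ha3, and of these neighbors Loxl3 and Plod1 alone overlapped between libraries (8.56 ± 0.164 and 8.44 ± 0.316 RPKM). In WT-TGF, Loxl2 (320 ± 7.71 RPKM) stood above Plod2 (238 ± 2.24), and P4ha3 (6.61 ± 0.441) overlapped with Loxl4 (5.99 ± 0.359). In KO-SD, Loxl2 (148 ± 3.25) was already above Plod2 (122 ± 3.10), and no neighbors overlapped. In KO-TGF, Plod2 (154 ± 0.495) was below Loxl1 (178 ± 2.48), and Loxl3 (10.2 ± 0.204) overlapped with Loxl4 (10.1 ± 0.183).

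Between the genotypes in SD, 5 of the 10 genes were higher in the libraries labelled KO (P4ha1, P4ha2, Plod1, Loxl2 and Loxl4) and 2 were lower (Plod2 and Loxl1) at FDR <5%, where 30.9% of all genes tested were higher and 25.2% lower. None differed by a fold change >2, which 3.20% of all genes did upwards and 3.23% downwards. Their median log2 value was 0.16, against 0.02 over all genes tested. P4ha1 had the largest difference, 1.73-fold or 0.79 on the log2 scale (SE 0.0282, adjusted p = 7.99e-21), followed by Loxl2 at 0.69 (SE 0.0224, adjusted p = 8.16e-22) and Plod1 at 0.47 (SE 0.0399, adjusted p = 1.28e-11). The log2 differences of Loxl4 and P4ha2 were 0.31 (SE 0.0703, adjusted p = 0.000341) and 0.27 (SE 0.0358, adjusted p = 1.50e-07). Plod2 was lower in KO by a log2 difference of -0.32 (SE 0.0219, adjusted p = 9.20e-14) and Loxl1 by -0.23 (SE 0.0262, adjusted p = 7.91e-09).

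The genotypes overlapped in SD for the other 3 genes, while the libraries of 59.1% of all genes tested did not overlap. Loxl3 differed by a log2 value of -0.00486 (SE 0.0443, adjusted p = 0.936), P4ha3 by 0.02 (SE 0.0953, adjusted p = 0.907) and Lox by 0.06 (SE 0.0295, adjusted p = 0.0996). The value of Lox was 0.00371 without KO-SD replicate 1, the library that stood apart, and it passed the threshold without KO-SD replicate 2 (0.09, adjusted p = 0.0230) or 3 (0.08, adjusted p = 0.0290). Scaled by library size alone it was -0.02 (adjusted p = 0.589).

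Under TGF-β, all 10 genes differed between KO and WT at FDR <5%, 6 of them higher in the libraries labelled KO (P4ha1, P4ha2, Plod1, Lox, Loxl2 and Loxl4) and 4 lower (P4ha3, Plod2, Loxl1 and Loxl3). Of all genes tested, 27.3% were higher and 27.8% lower. None of the 10 passed a fold change >2, with 1.38% of all genes past it upwards and 4.68% downwards, and their median was 0.19 against -0.00 over all genes. The largest differences were those of P4ha3, lower by a log2 value of -0.82 (SE 0.0734, adjusted p = 4.86e-11), and Loxl4, higher by 0.76 (SE 0.0564, adjusted p = 7.19e-13). Plod2 was lower by -0.63 (SE 0.0218, adjusted p = 4.88e-21), and Loxl3 and Loxl1 by -0.34 and -0.31 (adjusted p = 4.24e-08 and 3.99e-12). P4ha1 was higher by 0.59 (SE 0.0269, adjusted p = 5.11e-18), P4ha2 by 0.49 (SE 0.0381, adjusted p = 2.46e-12), Loxl2 by 0.46 (SE 0.0216, adjusted p = 8.27e-18) and Plod1 by 0.21 (SE 0.0369, adjusted p = 1.88e-05). Lox was higher by 0.18 (SE 0.0294, adjusted p = 5.83e-06), a value of 0.06 (adjusted p = 0.0776) when libraries were scaled by size alone, and the value of Plod1 was then 0.08 (adjusted p = 0.0497).

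**Figure D4:**
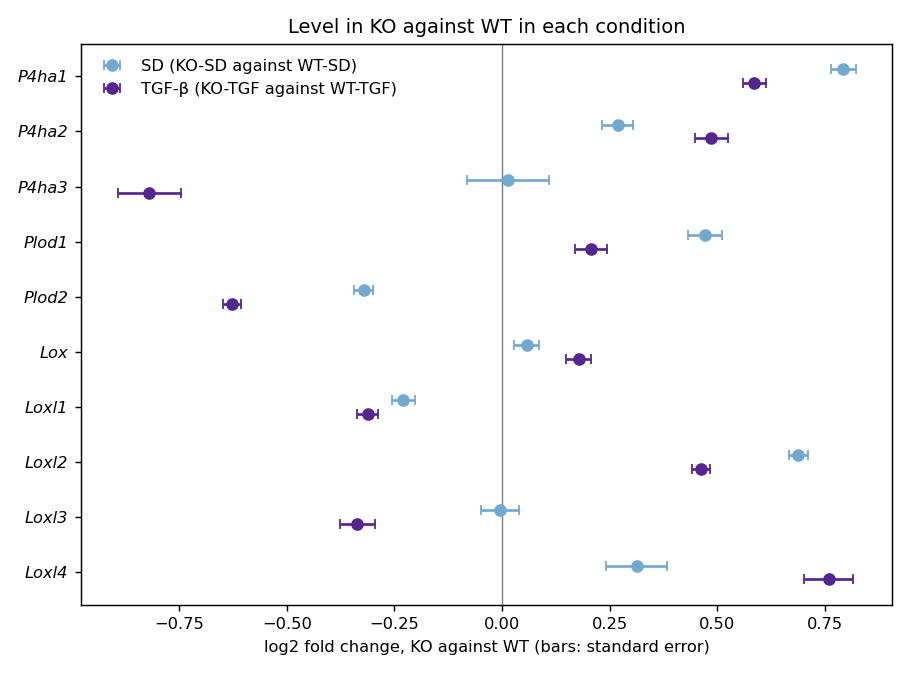
Log2 fold change of each gene in KO against WT, in SD and under TGF-β, with the SE as error bars (n = 3 libraries per group). P4ha3 moves from 0.02 in SD to -0.82 under TGF-β, while Loxl4 moves from 0.31 to 0.76.

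Markers of other cell types differed between the genotypes too. The 9 macrophage markers summed to 24.8 to 26.1 CPM in WT-SD libraries and to 2.06 to 2.22 in KO-SD, and 15.6 to 19.1 in WT-TGF against 0.856 to 1.55 in KO-TGF. Between 7 and 8 of these markers were above the floor in every WT library of a group and between 2 and 3 in KO, and Adgre1 had no count in any KO library. For 7 podocyte markers, 4 of them above the floor in every group, the sums were 459 to 467 in WT-SD and 218 to 227 in KO-SD, and 455 to 474 in WT-TGF and 205 to 220 in KO-TGF, while Nphs1 had at most 1 count. The sums of 7 endothelial markers were 51.1 to 52.7 in WT-SD, 59.3 to 65.6 in WT-TGF, 27.7 to 29.2 in KO-SD and 23.0 to 23.8 in KO-TGF, with 2 to 4 of the markers above the floor. Those of 7 tubular markers, with 3 to 5 above the floor and Umod at 0, were 72.4 to 78.9, 18.7 to 20.3, 20.7 to 23.1 and 7.36 to 7.55 in the same order. For 6 fibroblast markers, with 3 to 4 above the floor, they were 12.7 to 14.4, 5.04 to 6.27, 60.0 to 66.4 and 21.6 to 22.7, mostly from Dcn. Against the direction of these sums, Pdgfra was lower in KO, with means of 3.54 CPM in WT-SD and 1.97 in KO-SD. With TGF-β the means of Pdgfra were 0.646 in WT and 0.212 in KO. Cd34 was lower in KO as well, with means of at most 0.178 CPM. In SD, Ehd3 (mean 32.6 CPM in WT and 17.1 in KO) and Flt1 (18.9 and 10.7) set the endothelial difference. Pecam1, Cdh5, Tek, Kdr and Emcn had higher means in KO-SD, at most 0.375 CPM. Lrp2 (42.6 and 10.8) and Cdh16 (27.5 and 2.71) set the tubular one. Aqp1 (4.10 and 6.80) and Slc12a1 (0.357 and 1.25) went the other way, as did Cdh1 and Epcam at up to 0.311 CPM. The 10 mesangial markers summed to 4916 to 5076, 8712 to 8978, 7734 to 8212 and 15159 to 15297 CPM. Their part in the differences of the 10 enzyme genes was not tested.

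Whether TGF-β acted to the same extent in both genotypes was tested as the interaction, the log2 response in the libraries labelled KO minus that in WT. It uses the same 12 libraries as the contrasts above. Of the 10 genes, 6 had a negative and 3 a positive interaction at FDR <5%, where 16.6% of all genes tested had a negative and 8.66% a positive one. None passed a fold change >2, which 2.39% of all genes did downwards and 0.338% upwards, and the median of the 10 genes was -0.22 against -0.03 over all genes. In size, 7 genes responded less in KO, since the positive interaction of P4ha2 was a smaller fall, and 2 responded more (Lox and Loxl4). The share of all genes tested was not computed for this count by size, and Lox lost its call in several alternatives.

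Among the 6 genes with a negative interaction, the difference was largest for P4ha3, at -0.83 (SE 0.121, adjusted p = 2.74e-06) and a log2 response in KO of 45.3% of that in WT. Loxl3 followed at -0.33 (SE 0.0609, adjusted p = 9.37e-05, 43.7% of the WT response) and Plod2 at -0.31 (SE 0.0309, adjusted p = 3.60e-09, 52.5%). The interactions of Plod1, Loxl2 and P4ha1 were -0.27 (SE 0.0543, adjusted p = 0.000339), -0.23 (SE 0.0310, adjusted p = 1.11e-06) and -0.21 (SE 0.0389, adjusted p = 0.000124), and their KO responses were 66.1%, 87.5% and 78.4% of those in WT. These 3 genes were higher in KO already in SD, and stayed higher in KO with TGF-β. P4ha2 had an interaction of 0.22 (SE 0.0523, adjusted p = 0.00196), with a fall in KO of 47.8% of that in WT. Loxl4 had a larger rise in KO, by 0.45 (SE 0.0905, adjusted p = 0.000314, 155% of the WT response). For Lox the interaction of 0.12 (SE 0.0416, adjusted p = 0.0312) was not called with scaling by library size alone (0.08, adjusted p = 0.156), under DESeq2 (0.15, adjusted p = 0.106) or without WT-TGF replicate 2 (0.09, adjusted p = 0.123). For Loxl1 it was -0.08 (SE 0.0362, adjusted p = 0.0956), and it was called without KO-SD replicate 1 (-0.11, adjusted p = 0.0112).

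Across the 12 libraries, Pearson's r of log2 CPM between pairs of the 10 genes ranged from -0.99, for Plod2 and P4ha2, to 0.99, for Loxl3 and P4ha3. Loxl2 and Plod1 had an r of 0.98, P4ha1 and Plod1 0.97, and P4ha1 and P4ha2 -0.02. The libraries form 4 groups, so that these values mainly describe 4 group means. Over all genes tested, the pattern most like that of Lox was that of Gspt1 (r = 0.997), followed by Kpna4 (0.996), and the pairs were Gfpt2 and Cux1 for Loxl1 (0.997 and 0.996), Fstl1 and Lrrc59 for Loxl2 (0.999 and 0.999), Csdc2 after P4ha3 for Loxl3 (0.982) and Eef1d and Sgtb for Loxl4 (0.995 and 0.994). They were Zfp9 and Papss2 for Plod1 (0.993 and 0.992), St8sia2 and Ptgfrn for Plod2 (0.997 and 0.996), Lhfpl2 and Prune2 for P4ha1 (0.998 and 0.997), Fam129a and Sun2 for P4ha2 (0.991 and 0.991), and Csdc2 and Ap1s2 for P4ha3 (0.994 and 0.990).

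Of 20 other tested genes of collagen folding and modification, 16 rose and 4 fell with TGF-β in each genotype (median log2 fold change 0.53 in WT and 0.44 in KO), where 36.0% of all genes rose and 36.4% fell in WT and 34.9% rose and 39.1% fell in KO. In KO against WT, 16 were higher and 1 lower in SD and 16 higher and 2 lower under TGF-β, and 2 had a positive and 5 a negative interaction. Of all genes tested, 30.9% were higher and 25.2% lower in SD, and 27.3% higher and 27.8% lower under TGF-β. The interaction was positive for 8.66% and negative for 16.6%. The counts of the lists that follow are to be read beside the same shares of all genes. P4hb, the partner of the alpha subunits, had a mean of 602 ± 17.9 CPM in WT-SD, 1117 ± 22.2 in WT-TGF, 904 ± 13.3 in KO-SD and 1634 ± 19.1 in KO-TGF (SD, n = 3), with log2 fold changes of 0.89 with TGF-β in WT, 0.85 in KO, 0.59 for KO against WT in SD and 0.55 under TGF-β, all at FDR <5%. It thus had the same order of groups as Loxl2, from WT-SD over KO-SD and WT-TGF to KO-TGF. P3h2, a prolyl 3-hydroxylase of type IV collagen, fell most on the log2 scale: it fell by 1.75 in WT and fell by 2.36 in KO, and was lower in KO by a log2 value of -1.15 in SD and -1.77 under TGF-β.

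Of 25 collagen genes, the substrates of these enzymes, 18 rose and 4 fell in WT and 17 rose and 7 fell in KO (median log2 fold changes 0.69 and 0.61). In KO against WT, 14 were higher and 8 lower in SD and 13 and 8 under TGF-β, and 8 had a positive and 13 a negative interaction. Col6a3 rose most in WT, by a log2 value of 4.88 from a low mean of 0.958 CPM in WT-SD, and had the most negative interaction (-2.13). Col5a3 rose most in KO (3.50), and by 3.16 in WT. Col14a1 fell by 2.33 in WT and fell by 3.17 in KO, to low means of 1.08 CPM in WT-TGF and 0.924 in KO-TGF. Col3a1, a fibrillar collagen, was higher in KO-SD by 3.14, and Col6a2 in KO-TGF by 2.84. Col4a3, a chain of the mature glomerular basement membrane, was lower in KO by a log2 value of -3.91 in SD and -4.56 under TGF-β. Col18a1 had the most positive interaction, 1.12.

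Among 14 tested genes for proteins that process lysyl oxidases, bind them or carry copper, 10 rose and 4 fell with TGF-β in WT and 8 rose and 6 fell in KO (medians 0.53 and 0.18), 10 were higher and 2 lower in KO in SD, 8 and 5 under TGF-β, and none had a positive and 7 a negative interaction. Bmp1, the protease that cleaves the propeptide of Lox, had a mean of 282 ± 5.65 CPM in WT-SD, 592 ± 6.78 in WT-TGF, 358 ± 17.7 in KO-SD and 723 ± 19.7 in KO-TGF, and log2 fold changes of 1.07, 1.02, 0.34 and 0.29 with TGF-β in WT and KO and for KO against WT in SD and under TGF-β, all at FDR <5%. Tll1, a related protease, was higher in KO-SD by a log2 value of 2.78 and had an interaction of -2.28. Pcolce2, an enhancer of procollagen cleavage, rose by 2.07 in WT and 1.56 in KO. Fbln5, an elastic fiber protein, fell by 1.05 in WT and fell by 2.11 in KO. Postn (periostin) was higher in KO-TGF by 1.16. The copper protein ceruloplasmin (Cp) fell by 1.35 in WT and fell by 1.79 in KO. Cp was lower in KO by a log2 value of -1.34 in SD and -1.77 under TGF-β. Elastin (Eln), a main substrate of Lox and Loxl1, was below the limit for testing, with mean CPM values from 0.254 in WT-SD to 3.51 in KO-TGF.

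Of 7 tested genes for ascorbate supply and for other 2-oxoglutarate hydroxylases, 3 rose and 3 fell with TGF-β in WT and 2 and 2 in KO, with medians of 0.05 and -0.05. Of all genes tested, 36.0% rose and 36.4% fell in WT, and 34.9% rose and 39.1% fell in KO. In KO against WT, 2 were higher and 1 lower in SD, 2 higher and 2 lower under TGF-β, and 1 had a negative interaction. Gsto1, which reduces dehydroascorbate, rose by a log2 value of 1.13 in WT and 1.16 in KO. The transmembrane hydroxylase P4htm fell by 0.81 in WT and fell by 1.12 in KO. Of 21 hypoxia genes, a list that holds targets of the transcription factor HIF, for which P4ha1, P4ha2, Plod2 and Lox are known targets as well, 11 rose and 7 fell in WT and 9 rose and 9 fell in KO with TGF-β. In KO against WT, 16 of the hypoxia genes were higher and 4 lower in SD and 15 and 5 under TGF-β (medians 0.31 and 0.33), and 4 had a positive and 6 a negative interaction. Of all genes tested, 30.9% were higher and 25.2% lower in SD, and 27.3% and 27.8% under TGF-β. Vegfa rose most (1.14 in WT and 1.51 in KO) and Adm had the largest fall, as it fell by 1.87 in WT and fell by 3.46 in KO. The means of Adm with TGF-β were low, at 1.49 CPM in WT-TGF and 0.301 in KO-TGF. In KO-TGF the level of Adm differed by -2.28 on the log2 scale, with an interaction of -1.59, and Ero1l, an oxidase of the endoplasmic reticulum, was higher in KO-TGF by 1.07.

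Known TGF-β targets were counted to describe the treatment. Their list was chosen with earlier results of these data known, so it is not an independent check. Of 11 tested, 11 rose in WT, and 10 rose and 1 fell in KO, with medians of 1.73 and 1.57. In KO against WT, 6 were higher and 4 lower in SD, 4 higher and 6 lower under TGF-β, and 3 had a positive and 4 a negative interaction. Tgfbi was higher in KO-SD by 3.33 and had an interaction of -2.76, both resting on a low mean of 0.480 CPM in WT-SD. Acta2 was higher in KO-TGF by 1.10. The median interaction of these targets was -0.02, beside -0.22 for the 10 enzyme genes. It was -0.19 for the 25 collagen genes and -0.28 for the 14 genes that process or bind lysyl oxidases or carry copper. For the lists of collagen folding, of ascorbate and other hydroxylases, and of hypoxia, it was -0.03, 0.02 and -0.05. These medians were not tested against each other.

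The 10 genes lie apart from each other in the genome (GRCm38.p6, mm10, RefSeq). On the plus strand are P4ha1 on chromosome 10 from 59323197 to 59373304, P4ha2 on chromosome 11 from 54100924 to 54131668, P4ha3 on chromosome 7 from 100285489 to 100319701, Plod2 on chromosome 9 from 92539636 to 92608428, Loxl2 on chromosome 14 from 69608692 to 69695834 and Loxl3 on chromosome 6 from 83034205 to 83052566. On the minus strand are Plod1 on chromosome 4 from 147909753 to 147936776, Lox on chromosome 18 from 52516060 to 52529867, Loxl1 on chromosome 9 from 58287723 to 58313212 and Loxl4 on chromosome 19 from 42592279 to 42612806. The counts cover all exons of a gene on its own strand, so that isoforms were not told apart. The microRNA genes Mir6950 and Mir7040 lie on the same strand inside Loxl2 and Loxl3, and Htra2 overlaps Loxl3 on the opposite strand.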

How the data were processed

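RNA-seq was analysed from 12 libraries of MMC, 3 for each of the 4 groups, assigned by the genotype and treatment in the sample labels. TopHat (alignment to mm10) and HTSeq (counting per RefSeq gene and strand) were run by the authors on single-end reads, leaving out alignments of low quality, and the deposited values are these raw counts. Reads outside genes (10.3% to 15.4% of a library), on several genes (0.225% to 0.274%) or with several alignments (11.2% to 11.7%) were in no gene's count and in no library size, so that reads shared with near-identical copies are missing. The SE values given cover the spread between libraries as well as counting error, but not these missing reads.

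Exon lengths came from GENCODE vM21 (24407 of 25230 genes by symbol, 422 by older symbol or accession, 401 without one). Genes with RPKM >1 in at least 1 library (11536) were normalized by TMM (factors 0.898 to 1.10) and tested with edgeR 4.0.16 (R 4.3.3), by the quasi-likelihood test with a mean for each group fitted over all 12 libraries together, with Benjamini-Hochberg adjustment over the genes tested. Calls had FDR <5%, with fold change >2 counted beside. The fit was tested on simulated data. CPM and RPKM are means over 3 libraries with the SD, and log2 CPM for correlations had a prior count of 2. A count of 3 was the floor of detection.

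Every enzyme gene is named, with Plod3, P4hb, Bmp1, Eln, the 2 genes most alike to each, and the gene of each list that rose and fell most in a contrast among those with fold change >2. A gene that meets this rule is not reported here. Marker genes were named after their values were seen. The genes and lists were chosen with earlier results of these data known. Alternatives were library size alone, DESeq2 1.42.0, the likelihood ratio test, no filter on low values or one at CPM >1 in at least 3 libraries, fits restricted to the groups compared, a replicate block, and each library left out.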

Additional observations from a re-analysis of the deposited data

Results flagged for a closer look

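The TGF-β response differed between KO and WT for 9 of the 10 genes by the test of the interaction itself (quasi-likelihood test of edgeR, adjusted after Benjamini and Hochberg). The log2 response in KO minus that in WT was -0.83 for P4ha3, -0.33 for Loxl3, -0.31 for Plod2, -0.27 for Plod1, -0.23 for Loxl2 and -0.21 for P4ha1. It was 0.45 for Loxl4, 0.22 for P4ha2, whose level fell, and 0.12 for Lox. The call of Lox was lost in 7 alternatives, among them scaling by library size alone (0.08, adjusted p = 0.156), DESeq2 (0.15, adjusted p = 0.106) and the likelihood ratio test (adjusted p = 0.0783). Of all genes tested, 16.6% had a negative and 8.66% a positive interaction.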

How the results depend on the processing

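Each count of called genes stayed within 1 gene of its value in the 188 alternatives computed for the 10 counts. Of the 940 alternative log2 fold changes of single enzyme genes, 911 kept their direction and their side of the threshold, 9 lost and 9 gained the call, and 11 turned in direction, all in KO against WT in SD, where none of them was called. The 944 alternative values computed for the other genes named in the text kept both.

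Scaling by library size alone moved the median of all genes to -0.16 and -0.23 with TGF-β in WT and KO, to -0.06 and -0.13 for KO against WT in SD and under TGF-β, and to -0.08 for the interaction. With it, Lox in KO against WT in SD was -0.0187 and P4ha3 -0.0608, Loxl3 with TGF-β in KO was 0.05 and Lox in KO-TGF against WT-TGF 0.06, both past the threshold no more, and the interaction was 0.08 for Lox (adjusted p = 0.156) and -0.13 for Loxl1 (adjusted p = 0.00770). In KO against WT in SD, Loxl3 was 0.00738 with the CPM filter and 0.0232 without a filter, and P4ha3 -0.00457 in a fit of only the groups compared. Leaving out each library gave -0.0393 to 0.0304 for Loxl3, -0.0547 to 0.0521 for P4ha3 and 0.00371 to 0.09 for Lox in that contrast, and an interaction of 0.09 to 0.17 for Lox and -0.11 to -0.03 for Loxl1. The interaction of Lox lost its call under DESeq2, the likelihood ratio test (adjusted p = 0.0783) and without WT-SD replicate 1, WT-TGF replicate 2, KO-SD replicate 2 or KO-SD replicate 3 (adjusted p = 0.0735, 0.123, 0.123 and 0.0877), and that of Loxl1 gained one without a filter (adjusted p = 0.0352), without WT-SD replicate 1 (0.0468) and without KO-SD replicate 1 (0.0112). Lox in SD was called with the CPM filter (adjusted p = 0.0478) and without a filter (adjusted p = 6.96e-06). The causes of these changes were not tested.

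No pairing by replicate number was seen above a correlation of 0.1. The deviations of same-numbered libraries from their group means correlated at -0.027 to 0.076 over 18 pairs. In 10 of the 18, a library correlated best with its own number, so these values do not show that pairing was absent. With the replicate block, the counts of called genes in SD became 6 higher and 2 lower, since Lox (0.06, adjusted p = 0.0143) was called.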
